A study of Mus musculus with 2 samples.

Results

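The proteasome is the protease complex that degrades ubiquitin-tagged proteins, and its genes were read here in mouse regulatory T cells (Treg), the CD4 T cells that restrain immune responses. The members are the genes with a symbol of the form Psm, a letter from a to g and a number, read by probe sets that the platform annotation pairs with a single symbol. There were 49 such genes among 18193 named genes. Of these, 47 reached log2 5 in at least 1 array, the level from which a gene is called measured, against 9773 genes in the whole series. Only Psma8, the testis form of an alpha subunit, and Psmb11, the thymus form of a catalytic subunit, were under that level in both arrays. Psmc3ip and Psme3ip1 match the symbol rule but encode partners of a subunit or an activator rather than proteasome parts, which leaves 45 measured proteasome genes.

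The study compared Treg of 2 genotypes, with 1 array for each: Stat3 fl/fl on a Foxp3 Cre/wtS background, and Stat3 fl/wt on that same background. All donors were females of 6 to 8 weeks and carried Cre from 1 Foxp3 allele, and the cells came from spleen and lymph nodes. Cre acts on both Stat3 alleles in fl/fl and on a single one in fl/wt, so the comparison group is itself a partial deletion and no Cre-negative group was used here. Foxp3 is X-linked, so a heterozygous female has Treg with and without active Cre, and neither the number of mice pooled nor a selection for Cre-positive cells is stated in the labels. A single array a genotype leaves no replicate error and allows no test, so the differences describe these arrays only.

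The 20S core is a barrel of stacked rings, with alpha subunits outside and beta subunits inside, and 3 kinds of beta subunit hold the active sites. In most cells these are Psmb6, Psmb7 and Psmb5. Lymphocytes, and cells exposed to interferon-gamma, build in Psmb9, Psmb10 and Psmb8 in their place and so form the immunoproteasome, which is known for making peptides that suit class I major histocompatibility molecules. The 19S cap has a base of ATPases (Psmc genes) that unfold substrates and a lid (part of the Psmd genes) that removes ubiquitin. The factor Irf1 takes part in the response to interferon-gamma, while the factor encoded by Nfe2l1 raises proteasome genes when the proteasome is inhibited.

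The start regions below are shown because the genotype concerns a Stat factor and because constitutive and interferon-linked subunits are known to be controlled in different ways. They run from 250 bases before to 50 after the gene's start, 5′ to 3′ on the gene's strand, and come from RefSeq on build GRCm38.p6. The deposited values name no build. Capitals mark matches, on both strands, to TTCNNNGAA (a Stat-type motif), GAAA followed after any 2 bases by GAAA (an interferon-response type) or TGACNNNGC (the antioxidant-response type linked to Nfe2l1 and Nfe2l2), and the matches shown do not overlap. Psmb8 at chr17:34197945-34198244 (+ strand), Psmd2 at chr16:20651402-20651701 (+ strand) and Psmg1 at chr16:95990911-95991210 (- strand) hold the Stat-type letters, Psme1 at chr14:55578244-55578543 (+ strand) the interferon-response letters on the reverse strand, and Psmb5 at chr14:54617946-54618245 (- strand) and Psmb6 at chr11:70525107-70525406 (+ strand) the antioxidant-response letters.
Psmb8: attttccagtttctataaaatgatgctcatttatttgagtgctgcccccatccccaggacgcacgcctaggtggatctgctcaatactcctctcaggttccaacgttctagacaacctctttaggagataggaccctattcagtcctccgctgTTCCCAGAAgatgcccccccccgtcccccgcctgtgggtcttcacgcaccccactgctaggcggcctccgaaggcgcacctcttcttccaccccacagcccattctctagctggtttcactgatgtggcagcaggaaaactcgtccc
Psmd2: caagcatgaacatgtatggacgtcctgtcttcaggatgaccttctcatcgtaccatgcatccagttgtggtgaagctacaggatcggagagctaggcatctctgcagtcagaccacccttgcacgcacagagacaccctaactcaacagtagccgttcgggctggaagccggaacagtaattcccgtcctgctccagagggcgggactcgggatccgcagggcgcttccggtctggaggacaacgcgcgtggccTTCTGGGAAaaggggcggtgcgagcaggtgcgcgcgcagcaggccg
Psmg1: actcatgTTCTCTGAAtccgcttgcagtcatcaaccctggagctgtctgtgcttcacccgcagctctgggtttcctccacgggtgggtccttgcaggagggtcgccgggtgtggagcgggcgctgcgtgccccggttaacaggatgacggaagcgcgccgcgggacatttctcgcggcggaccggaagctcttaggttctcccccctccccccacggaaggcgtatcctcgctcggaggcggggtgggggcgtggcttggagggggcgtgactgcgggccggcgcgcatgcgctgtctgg
Psme1: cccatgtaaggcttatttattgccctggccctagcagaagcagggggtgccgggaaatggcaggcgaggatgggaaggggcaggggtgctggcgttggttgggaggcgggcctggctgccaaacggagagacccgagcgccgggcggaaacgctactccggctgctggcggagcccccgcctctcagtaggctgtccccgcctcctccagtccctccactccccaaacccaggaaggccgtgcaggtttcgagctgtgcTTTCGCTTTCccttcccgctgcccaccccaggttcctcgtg
Psmb5: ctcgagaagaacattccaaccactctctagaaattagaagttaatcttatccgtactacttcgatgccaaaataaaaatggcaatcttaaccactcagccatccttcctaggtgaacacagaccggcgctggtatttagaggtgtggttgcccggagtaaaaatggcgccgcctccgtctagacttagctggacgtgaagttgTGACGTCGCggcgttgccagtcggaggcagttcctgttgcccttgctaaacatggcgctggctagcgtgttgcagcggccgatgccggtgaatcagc
Psmb6: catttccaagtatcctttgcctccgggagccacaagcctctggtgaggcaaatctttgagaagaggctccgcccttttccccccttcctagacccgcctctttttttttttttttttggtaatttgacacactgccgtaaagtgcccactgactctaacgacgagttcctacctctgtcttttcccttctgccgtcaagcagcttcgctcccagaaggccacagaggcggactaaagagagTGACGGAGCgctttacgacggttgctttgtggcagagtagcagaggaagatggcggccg
The motif in Psmb8 starts 97 bases before the gene's start and that in Psmg1 243 bases before it, while that in Psmd2 lies within the transcript, from base 5. Start regions were at hand for 38 of the 45 measured proteasome genes, 40 regions in all. The Stat-type letters stood in 3 of these 40 regions, beside 8.3% of all 32851 regions of that length. The interferon-response letters stood in 5 of 40 (Psmb3, Psmd4, Psmd9, Psme1 and Psmg4), beside 3.44%. The antioxidant-response letters stood in 6 of 40 (Psmb5, Psmb6, Psmc6, Psmd12, Psmd9 and Psme4), beside 12.4%. A match describes letters and does not show binding.

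No proteasome gene differed between the genotypes by 1.5-fold or even by 0.25 on the log2 scale. Differences are the fl/fl value minus the fl/wt value, on the log2 scale of the deposited values. Of all measured genes, 0.246% were higher and 0.399% lower in fl/fl by at least 1.5-fold, and 5.79% differed by 0.25 or more either way. Among genes with a mean of at least log2 8, where all 45 proteasome genes lie, these shares were 0.0506%, 0.0127% and 2.01%. Of the 45 proteasome genes, 18 were higher in fl/fl, beside 47.5% of all genes, and 27 lower, beside 52.5%. Their median difference was -0.011, beside -0.0045 for all genes. Those with a difference of at least 0.1 were 2 higher (Psmg2 and Psmc4), beside 12.6% of all genes, and 2 lower (Psmg4 and Psme3), beside 14.2%.

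**Figure D1:**
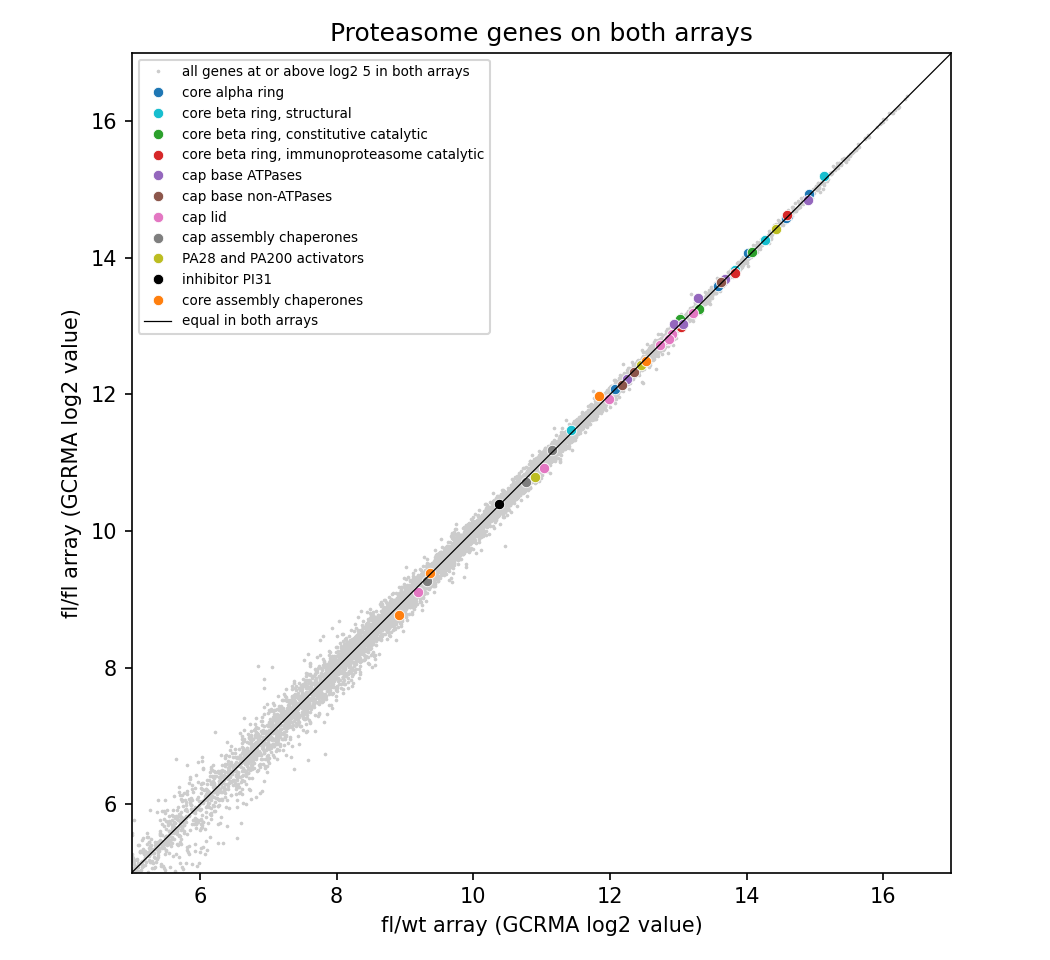
Values of the fl/wt array (x axis) and the fl/fl array (y axis), both GCRMA log2 values; each point is a gene read by its brightest probe set, grey for every gene that reached log2 5 on each array and coloured by role for the 45 proteasome genes, and the line marks equal values. The coloured points lie along the line from 8.84 to 15.17, the largest differences being 0.14 (Psmg2) and -0.14 (Psmg4).

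The constitutive catalytic subunits, which cut proteins in most tissues, were at nearly equal values in both arrays. Psmb5, with chymotrypsin-like activity, read 14.08 for fl/wt and 14.09 for fl/fl. Psmb6, with caspase-like activity, read 13.30 and 13.25. Psmb7, with trypsin-like activity, read 13.03 and 13.11. The differences were 0.018, -0.053 and 0.082, so Psmb7 was the highest and Psmb6 the lowest of the whole core.

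The immunoproteasome subunits were all above log2 12 in both arrays and likewise close. Psmb8, which takes the place of Psmb5, read 14.59 for fl/wt and 14.63 for fl/fl. Psmb9, which takes the place of Psmb6, read 13.83 and 13.79. Psmb10, which takes the place of Psmb7, read 13.05 and 12.99. The differences were 0.043, -0.041 and -0.053. Psmb8 had a second measured probe set, which went the opposite way by -0.15, while the other 5 catalytic genes had none. Levels of different probe sets are not comparable, since each binds with its own strength, so the values do not tell whether a cell holds more Psmb8 or Psmb5 transcript.

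What can be compared is how the forms moved between genotypes. The mean difference was -0.017 over the 3 immunoproteasome genes and 0.015 over the 3 constitutive genes. The contrast of both was -0.032, which amounts to a change of -2.21% in their ratio. Within pairs that share a place in the ring, Psmb8 minus Psmb5 was 0.025 and Psmb9 minus Psmb6 0.012, while Psmb10 minus Psmb7 was -0.13. At the brightest probe sets only this last pair differed by more than 0.03. Read as the median over probe sets, Psmb8 minus Psmb5 was -0.071. Psmb10 minus Psmb7 rests on a single probe set for each gene. The SD between probe sets of the same proteasome gene was 0.12. That SD concerns the difference of a single gene and includes dimmer probe sets, while the contrast carries the spread of both genes, so these values are not on the same footing.

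The alpha ring, which gates the entry to the core, had 5 genes higher and 2 lower in fl/fl, with a median of 0.0050. Psma1 read 14.03 for fl/wt and 14.07 for fl/fl, the largest positive difference of the ring at 0.046, and its other measured probe set differed by -0.18. Psma4 read 13.07 and 13.03, the largest negative difference at -0.042. Psma2 (0.0050), Psma3 (0.024), Psma5 (0.0059), Psma6 (-0.0024) and Psma7 (0.00052) lay between these. The structural beta subunits, which carry no active site, had 2 higher and 2 lower. Psmb4 read 15.13 and 15.21, a difference of 0.073, but its other probe set differed by -0.045. Psmb2 differed by 0.053, Psmb1 by -0.011 and Psmb3 by -0.0035. Over all 17 measured core genes, 10 were higher and 7 lower, none by 0.1, with a median of 0.0050. The core's direction also turned without shared-probe suffixes: 4 genes were then higher and 9 lower (median -0.041), and Psma3, read by its other probe set, differed by -0.11.

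At the brightest probe sets the cap leaned lower in fl/fl by a small amount. Of 17 cap subunits within the symbol rule, 3 were higher and 14 lower in fl/fl (median -0.018, mean -0.017). Beside this, 52.5% of all measured genes were lower, and 55.4% of those with a mean from log2 12 to 14. The 14 lower ones include all 8 lid genes within the rule. The base ATPases had 2 higher and 4 lower, and the other base subunits 1 higher and 2 lower. The median of the core minus that of the cap was 0.023. Without probe sets whose suffix marks shared probes, this contrast was -0.0036 with 13 genes on each side. The same 26 genes gave 0.036 at their brightest probe sets, a comparison added after the data were seen. The sign for these genes thus differed between the readings, but -0.0036 is a very small value and the reason was not tested.

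**Figure D2:**
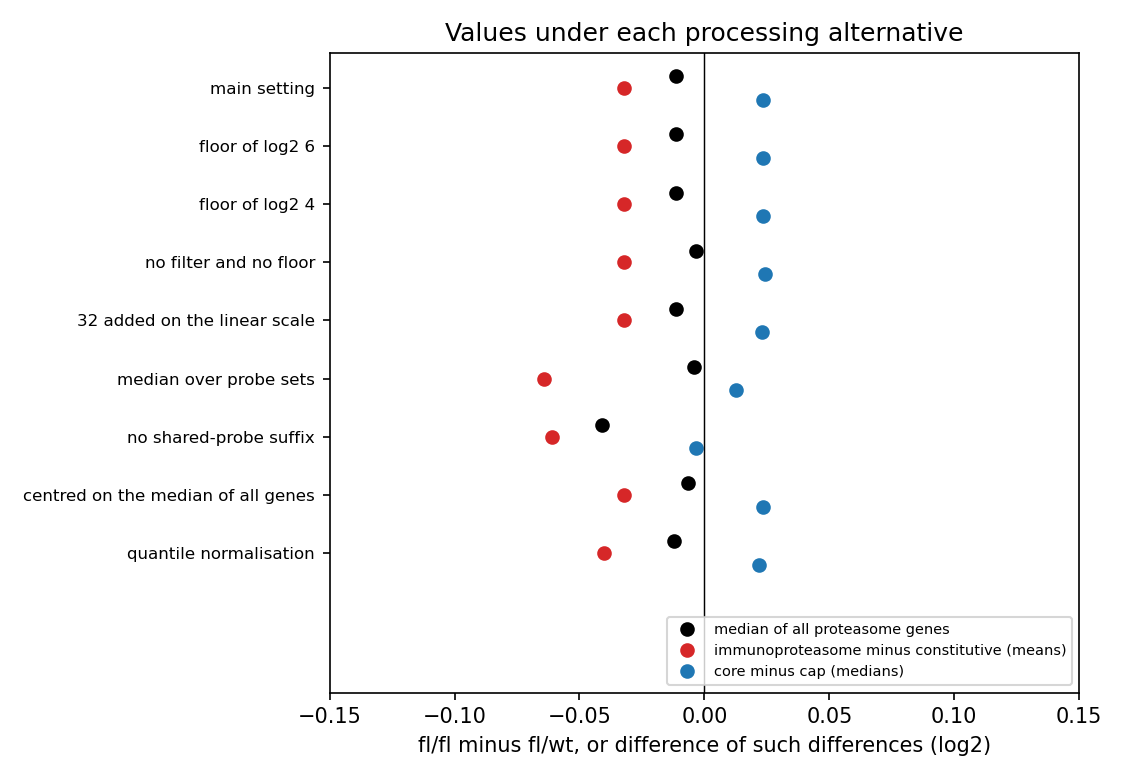
Median difference of all proteasome genes (black), contrast of immunoproteasome and constitutive means (red) and contrast of core and cap medians (blue) on the log2 scale (x axis), under the main setting and 8 processing alternatives (y axis). Black points stay between -0.041 and -0.0035 and red points between -0.064 and -0.032, while the blue point falls to -0.0036 without shared-probe suffixes.

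The 6 base ATPases, the ring that unfolds proteins, ranged widest within the cap. Psmc4 read 13.29 for fl/wt and 13.42 for fl/fl, a difference of 0.13, while its other probe set differed by -0.037. Psmc5 read 12.93 and 13.03, a difference of 0.093, and had no other measured probe set. Psmc2 differed by -0.059, with its other probe set at -0.042. Psmc6 differed by -0.049, with its others at 0.029 and 0.050, and Psmc1 (-0.016) and Psmc3 (-0.0032) differed least. The scaffold subunits of the base gave -0.036 for Psmd1 and -0.018 for Psmd2. The ubiquitin receptor Psmd4 gave 0.029, and its other 2 probe sets went the opposite way, by -0.046 and, for the dimmest, -0.31.

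All 8 measured lid genes within the symbol rule were lower in fl/fl, with a median of -0.046. Beside this, 53.2% of the genes with a mean of at least log2 8 were lower, and the median over those genes was -0.0049. Psmd3 read 11.03 for fl/wt and 10.93 for fl/fl, the largest difference of the lid at -0.099. Psmd7 read 9.19 and 9.11, a difference of -0.084, with its other probe set at -0.12. Psmd11 differed by -0.053, but 2 of its other 3 probe sets were higher, by up to 0.094. Psmd13 (-0.050), Psmd8 (-0.041), Psmd14 (-0.018), the deubiquitinase of the lid, Psmd12 (-0.016) and Psmd6 (-0.0027) completed these 8. Over their 14 probe sets with log2 5 or more on each array, 12 were lower, with a median of -0.052. Sem1, a lid subunit outside the symbol rule, is not in these counts. It differed by -0.061, and its other measured probe set by 0.096. The lid was picked out after its values were seen, and each difference at the brightest probe set is smaller than 0.12, the SD between probe sets of the same gene, while those of Psmd3 and Psmd7 exceed the 0.082 found over brighter probe sets. Centred on the median of all genes, after quantile normalisation, or with the median over probe sets, where Psmd11 was at 0.057, 7 of the 8 were lower.

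Cap chaperones, which guide assembly of the base, had 1 gene higher and 2 lower: Psmd10 at 0.032, Psmd5 at -0.058 and Psmd9 at -0.061, the last with its other probe set at 0.043. Core chaperones, which pair alpha subunits and start the rings, held the largest differences of all proteasome genes. Psmg2 read 11.85 for fl/wt and 11.98 for fl/fl, a difference of 0.14, with its other probe set in the same direction at 0.058. Psmg4 read 8.91 and 8.77, a difference of -0.14, and was the dimmest proteasome gene measured. Psmg2 and Psmg4 thus lay at opposite ends, with Psmg1 (-0.037) and Psmg3 (0.022) between them.

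Among activators, which open the core without ATP, Psme1, a PA28 subunit induced by interferon-gamma, read 14.42 for fl/wt and 14.43 for fl/fl, a difference of 0.0054. Its partner Psme2 shares its probe set with Psme2b and was left out. Psme3, the nuclear PA28 form, read 10.90 and 10.79, a difference of -0.10, while its other measured probe set differed by 0.11. Psme4, which encodes PA200, differed by -0.019 at its brightest probe set, and its 4 others ran from -0.051 to 0.45, the highest pair (0.28 and 0.45) at probe sets below log2 6. Psmf1, the inhibitor PI31, differed by 0.022, with others from -0.11 to 0.15. Outside the complex, Psmc3ip, a recombination factor, differed by -0.14 and at its other probe set by -0.26, and Psme3ip1 by -0.0035.

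**Figure D3:**
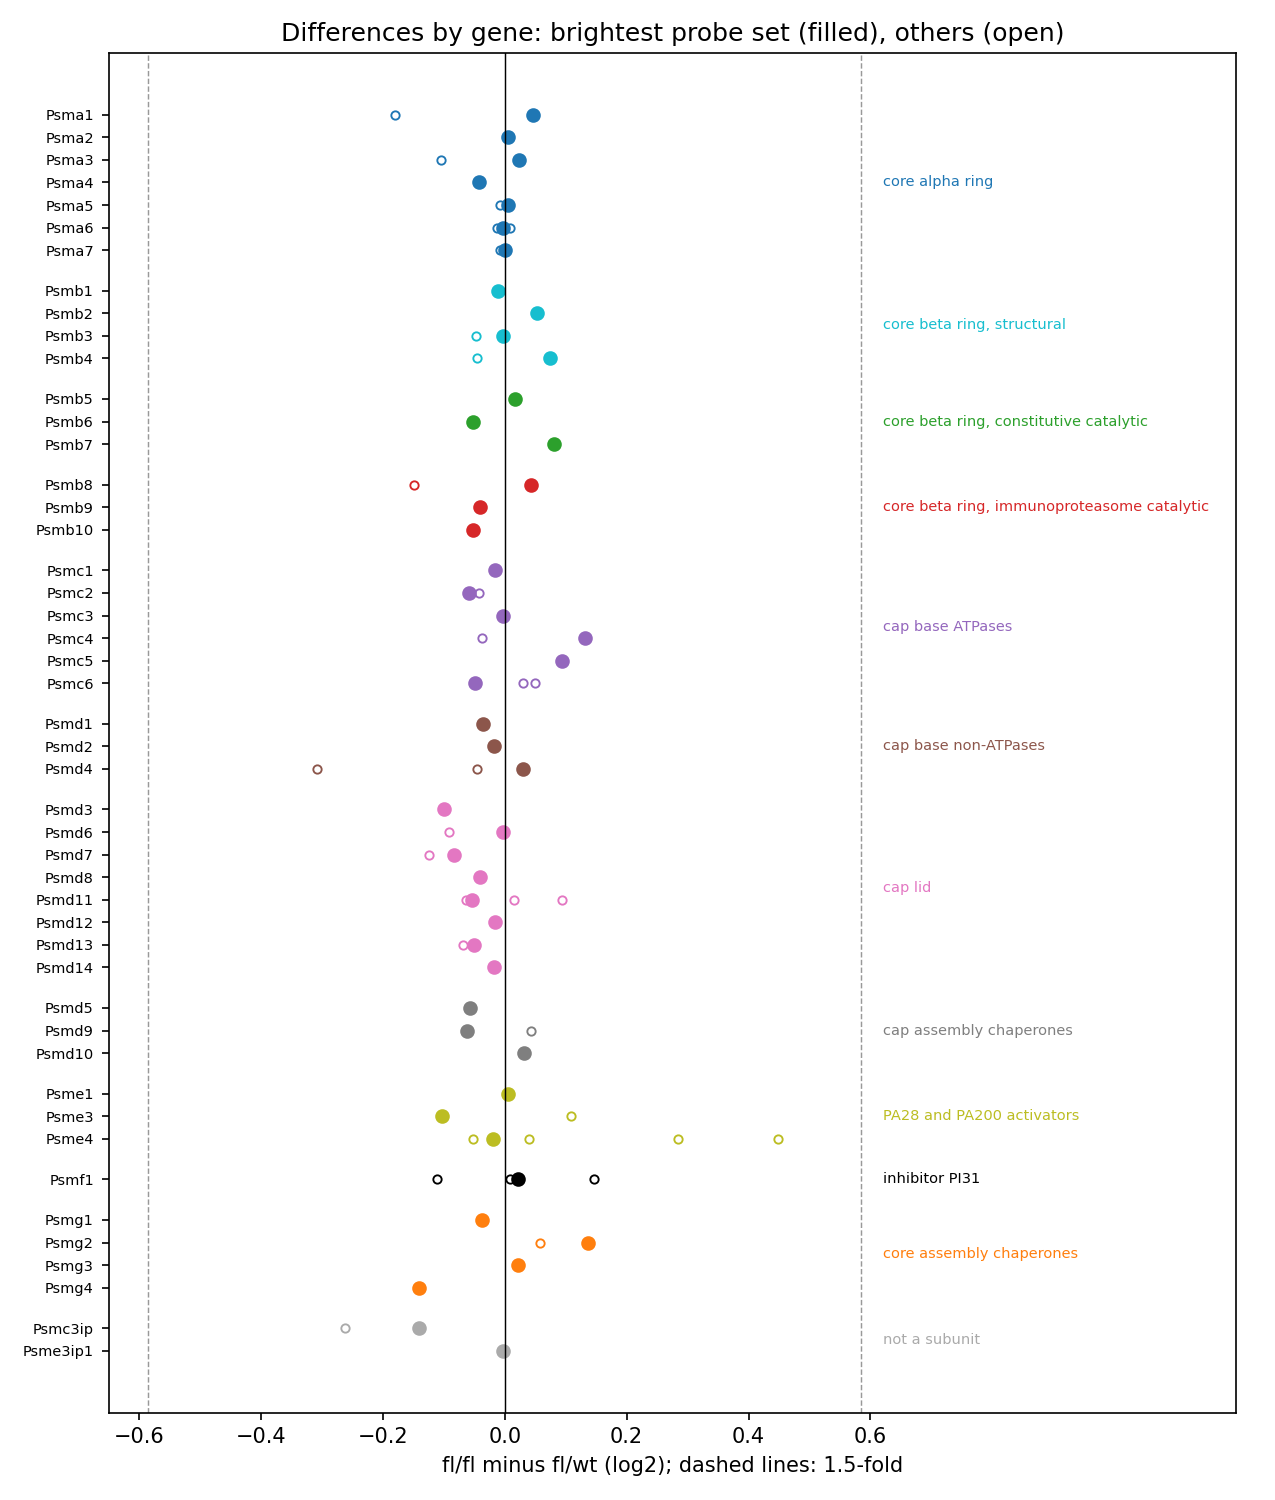
Difference of fl/fl minus fl/wt on the log2 scale (x axis) for the 47 measured genes that match the symbol rule (y axis), coloured by role; filled points are the brightest probe set and open points the gene's other measured probe sets, and dashed lines mark 1.5-fold. No filled point passes 0.15 in size, the 8 lid genes lie left of 0, and open points reach -0.31 (Psmd4) and 0.45 (Psme4).

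The SD between probe sets of the same gene was larger than the SD over genes, but the 2 were taken at unlike levels. Among proteasome genes, 21 had at least 2 measured probe sets (log2 5 or more on each array), 52 probe sets in all. In 6 of these genes all probe sets shared a direction and in 15 they did not. The SD between probe sets of 1 gene was 0.12, and 0.082 over probe sets with a mean of at least log2 8, while the SD over the 45 genes was 0.057. Over all 4227 genes with several such probe sets the SD was 0.14. These SDs are between probe sets on the same pair of RNA samples and do not stand in for biological replicates. The SD over the 45 genes used only each gene's brightest probe set, while the SDs between probe sets include dimmer ones. Over all measured genes, the SD of the differences was 0.034 at a mean of log2 14 or more and 0.12 from log2 8 to 10. The spread between probe sets and that over genes therefore cannot be ranked.

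The differences were larger in dimmer genes. At a mean of log2 14 or more, none of 10 proteasome genes differed by at least 0.1, beside 0.804% of all genes there. From log2 12 to 14 it was 1 of 23, beside 5.69%, from 10 to 12 it was 2 of 8, beside 15%, and from 8 to 10 it was 1 of 4, beside 36.7%. Proteasome genes were mostly bright, with 33 of 45 at log2 12 or more, so 19.8%, the share of genes with a mean of at least log2 8 that differed by 0.1 either way, overstates the background for them.

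**Figure D4:**
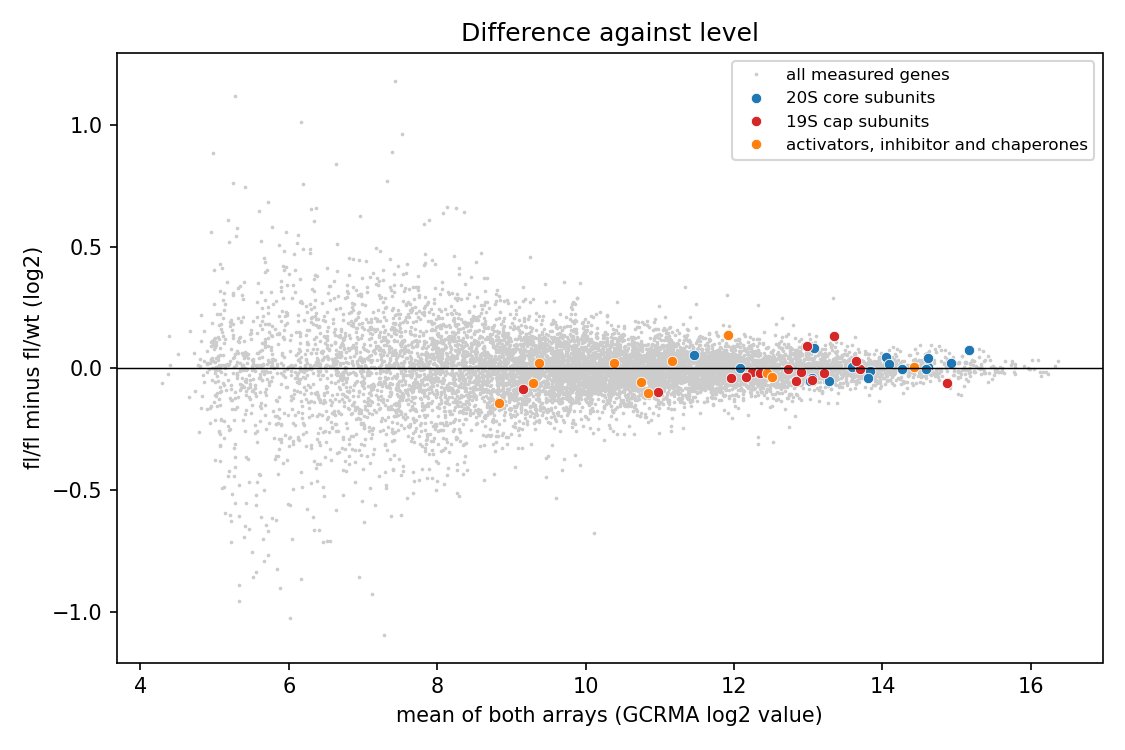
Difference of fl/fl minus fl/wt (y axis, log2) against the mean of both arrays (x axis, GCRMA log2 value); grey points are all measured genes, a value under log2 5 being set to 5 for the difference, and coloured points are core subunits, cap subunits, and the activators, inhibitor and chaperones. The grey cloud narrows from an SD of 0.23 at log2 5 to 8 to 0.034 at log2 14 or more, and most coloured points lie at its narrow end.

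Genes that work with the proteasome but have other names were also close in both arrays. Of 11 measured partners, 3 were higher and 8 lower in fl/fl (median -0.032). Beside this, 53.2% of the genes with a mean of at least log2 8, where all these partners lie, were lower. Some of the lower partners, such as Sem1, had another probe set that was higher. Ube3c, a ubiquitin ligase at the proteasome, read 8.98 for fl/wt and 8.54 for fl/fl, a difference of -0.43, the only listed partner past 0.25 at its brightest probe set, but its other 2 probe sets differed by 0.0096 and 0.11. Another probe set of Ecpas, which differed by -0.032 at its brightest, differed by -0.48. Pomp, which matures the core, differed by -0.019, and Akirin2, which brings proteasomes into the nucleus, by 0.063. Of the 3 measured regulators, Nfe2l1 read 10.14 and 10.12, a difference of -0.023. Nfe2l2 differed by -0.057, with its other measured probe set at 0.027, and Ngly1 by 0.057. Among genes that carry substrates to the proteasome, 4 were higher and 5 lower, from -0.16 for Nploc4 to 0.094 for Ufd1, with a median of -0.0092.

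The listed genes linked to class I peptide loading were all measured, 6 higher and 6 lower of 12, none by 0.1 at the brightest probe set, with a median of 0.0013. Other probe sets reached -0.77 for Tapbpl and, for Canx, -0.23 and 0.32. In the RefSeq table Tap1, a subunit of the peptide transporter of class I loading, lies next to Psmb9, and Psmb8 lies between Tap1 and Tap2. Tap1 read 12.74 for fl/wt and 12.83 for fl/fl, a difference of 0.081, the highest of the list. Tap2 differed by 0.0054 and the peptide trimmer Erap1 by -0.075, the lowest. Along this cluster the order was therefore -0.041 (Psmb9), 0.081 (Tap1), 0.043 (Psmb8) and 0.0054 (Tap2). Of 12 measured genes of the interferon-gamma response, 6 were higher and 6 lower (median 0.0020). Irf1 read 12.98 in both arrays and differed by -0.0043, and Stat2 (0.21) and Ifngr2 (-0.13), both under log2 8, differed most.

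The deletion could not be checked from these values. Stat3 read 11.99 for fl/fl and differed by -0.0083 from fl/wt, with its other 2 measured probe sets at -0.083 and -0.019, and the labels do not place these probe sets against the floxed exons. Directions therefore rest on the labels. Of 12 Treg and CD4 T cell markers, 11 were measured, at 12.08 to 14.91 for fl/wt. Their differences ran from -0.10 for Il2ra to 0.096 for Ikzf4. The other measured probe sets of these genes differed by -0.014 (Il2ra) and -0.14 (Ikzf4). Foxp3 was below log2 5 on each array (4.09 and 3.52). Markers of other cells that also carry immunoproteasomes were present. Of 6 myeloid markers 5 were measured, from 12.04 (Adgre1) to 13.99 (Csf1r) for fl/wt, genes that differed by 0.053 and 0.015, with a median difference of 0.015, and Itgam was at or below 2.37. Of 5 B cell markers with a probe set 4 were measured, from 5.31 (Blk) to 10.34 (Cd79b) for fl/wt and from 5.15 to 10.26 for fl/fl. Pax5 was at or below 1.89. Of these 4, 1 was higher (Cd79a, 0.16) and 3 lower, with a median difference of -0.12. That median depends on the probe set: Ms4a1 differed by -0.34 at its brightest but by 0.28 at its other measured one, and Blk lay near log2 5. Of 4 CD8 and NK markers with a probe set 3 were measured, from 6.87 (Eomes) to 8.54 (Cd8b1) for fl/wt and from 6.95 to 8.81 for fl/fl, with a median difference of 0.076, and Ncr1 was at or below 2.14. Of 5 dendritic markers only Itgax was measured, at 6.81 and 7.01. Their part in the proteasome values was not tested, and in such a sort fewer cells of a type and less RNA per cell cannot be told apart.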

How the data were processed

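RNA of sorted Treg was labelled with biotin and hybridised to arrays, per the labels' protocols. The deposited values are log2 values of 45101 probe sets on 2 arrays, made with GCRMA per the submitters' processing notes, which give no version or settings. The number of arrays limits the precision. Gene symbols came from the platform annotation, and all 49 member genes matched the RefSeq table of GRCm38.p6 by Entrez identifier under the same symbol. Control probe sets, and probe sets with several symbols, 1 of which holds a Psm symbol, were left out. Each gene was read by its brightest probe set (mean of both arrays), kept if it reached log2 5 in at least 1 array, with lower values set to 5. Probe sets whose names end in _a_at can bind several transcripts of the same gene. Those ending in _s_at or _x_at can also bind other genes, so near-identical copies may share their signal. The setting without shared-probe suffixes leaves out all of these, so it also drops probe sets that are specific to a gene. All member genes could be named by rule, and of each other list its extremes plus a few fixed genes. The members, lists and thresholds were chosen with earlier results of these data known. The step that counts differences was tested on simulated data. Python 3.11.15, numpy 2.4.6 and pandas 2.3.3 were used.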

Additional observations from a re-analysis of the deposited data

How the results depend on the processing

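The alternatives, planned except where the text says otherwise, were floors of log2 6 and 4, no filter or floor, 32 added on the linear scale, the median over probe sets, no probe sets with shared-probe suffixes, centring and quantile normalisation. No proteasome gene passed 1.5-fold under any of these 8 planned settings. Genes past 0.25 numbered 0 except with the median over probe sets, where Psme4 (0.28) made it 1, dim probe sets included. Without shared-probe suffixes, the proteasome genes split into 9 higher and 27 lower (median -0.041), while 52.3% of all genes were lower; the cause was not tested. There the lid genes within the symbol rule counted 5 lower of 5 measured. The immunoproteasome contrast was -0.064 with the median over probe sets, -0.040 after quantile normalisation and -0.061 without shared-probe suffixes, where Psmb8 and Psmb5 have no value; floors and centring cannot move it. Of 350 values of single genes under alternatives, 6 shifted past 0.12 (the SD between a gene's probe sets), and 22, from 18 genes, had the opposite sign. Centring gave 22 higher and 23 lower. Over all genes, those past 1.5-fold (24 higher and 39 lower) were 14 lower with a floor of 6, 44 higher with a floor of 4, 76 higher and 95 lower with no filter or floor (937 past 0.25), and 13 higher and 10 lower with 32 added. No paired analysis was possible because each genotype has 1 array. Weak signal over background limits genes near log2 5, and no proteasome gene was near it.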
